A study of Mus musculus with 12 samples.

Results

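A set of 7 growth regulators of the embryo, Hmga2, Hmga1, Igf2bp2, Igf2bp3, Igf2bp1, Lin28b and H19, was followed in bulk RNA of mouse sciatic nerve. They were taken by symbol, 7 of the 38087 gene models in the deposited count table and 7 of the 22384 models with enough reads to test. Hmga2 was selected on its counts in these libraries, high after transection in control nerve and much lower in mutant nerve, so its values after transection are described without a test. The other 6 members were tested, with Lin28b described only where dKO 5DPI libraries enter. The question was whether they followed Hmga2.

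The data were 4 groups of 3 libraries each, labelled as biological replicates. The Tfeb/3 SC-dKO mice (dKO below) carried floxed Tfeb deleted in Schwann cells by Dhh-Cre and lacked Tfe3 in every cell (Dhh-Cre+:Tfebflox/flox;Tfe3KO). Control mice carried the same floxed Tfeb without Cre and kept Tfe3 (Dhh-Cre-:Tfebflox/flox;Tfe3+). Nerve was taken distal to a transection after 5 days (5DPI) or from the intact side opposite a transection. Groups are dKO 5DPI (replicates 2, 3 and 4), control 5DPI (1, 2 and 4), dKO intact (2, 3 and 4) and control intact (1, 2 and 3). Per the labels, the epineurium was stripped from intact nerves, and nothing is said of it for transected ones, so transection and this step cannot be told apart. Neither age nor sex was labelled.

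HMGA2 and HMGA1 are small chromatin proteins that bend AT-rich DNA, are abundant in embryonic and dividing cells and are scarce in most adult tissues. HMGA2 is known in mouse to drive transcription of Igf2bp2, whose product, like those of Igf2bp1 and Igf2bp3, binds messenger RNAs such as that of the growth factor Igf2. The let-7 microRNAs repress Hmga2, Lin28b and Igf2bp messages, LIN28B in turn blocks the maturation of let-7, and H19 is an imprinted noncoding RNA transcribed from the maternal allele beside Igf2. TFEB and TFE3 are transcription factors of lysosome and stress genes that bind the sequence CACGTG.

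The shared let-7 link can be read in the sequences, which are shown because the members were grouped partly for it. Of 11 mature let-7 and miR-98 sequences in RefSeq (GRCm38.p6), 10 had the same seed at bases 2 to 8, in capitals here, as did the examples let-7a and let-7g. The microRNA cut from H19, miR-675, had another seed.
mmu-let-7a-5p: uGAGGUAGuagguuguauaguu
mmu-let-7g-5p: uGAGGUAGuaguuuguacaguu
mmu-miR-675-5p: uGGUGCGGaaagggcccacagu

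The complement of the let-7 seed, CTACCTC, was searched on the sense strand of the longest annotated 3′ untranslated region of each gene (GENCODE M21, GRCm38). It was present in 9.02% of 21020 genes, and 4 or more copies were present in 12 genes. Among genes with regions of like length the share was higher for Hmga2 (16.1%), Igf2bp1 (34.4%) and Lin28b (24.4%). It was 8.23% for Hmga1, 12.1% for Igf2bp2 and 13.3% for Igf2bp3. Hmga2, Igf2bp1 and Lin28b held 4 copies each. Hmga1, Igf2bp2 and Igf2bp3 held 1 copy each. The regions differed in length, 3014 bases for Hmga2, 6337 for Igf2bp1, 4445 for Lin28b and 1183 to 2119 for the others. A match is a description of the letters and not a measured site. The 4 matches of Hmga2 on the minus strand at chr10:120364223-120364251, chr10:120362986-120363014, chr10:120362548-120362576 and chr10:120361690-120361718, and the match of Igf2bp2 on the minus strand at chr16:22059472-22059500, are given 5′ to 3′ with the seed match in capitals.
Hmga2 match 1: ggggcgccgacattcaatttCTACCTCag
Hmga2 match 2: ataatccccactcctcaataCTACCTCtg
Hmga2 match 3: acttcctgatttgcaaggaaCTACCTCca
Hmga2 match 4: tgtacaatcaaaacacactaCTACCTCtt
Igf2bp2 match: gaaaaacacacaaataaaagCTACCTCag

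Promoters were searched for CACGTG, a palindrome read alike on both strands, because the deleted factors bind it. It was found in 7.15% of 32851 RefSeq windows that run from 250 bases before to 50 bases after a gene start (GRCm38.p6). The windows of Hmga2, Hmga1 and Igf2bp2 held no copy, that of Lin28b held 1 and that of Igf2bp3 held 2, 1 before and 1 after the gene start. Igf2bp1 and H19 had no window in the table. The 250 bases before the start of Hmga2 (chr10:120476470-120476719, minus strand) are rich in runs of c and t, and are shown beside those of Igf2bp3 (chr6:49214955-49215204, minus strand), with its upstream CACGTG in capitals. No match says only that these letters are not in the window.
Hmga2 upstream: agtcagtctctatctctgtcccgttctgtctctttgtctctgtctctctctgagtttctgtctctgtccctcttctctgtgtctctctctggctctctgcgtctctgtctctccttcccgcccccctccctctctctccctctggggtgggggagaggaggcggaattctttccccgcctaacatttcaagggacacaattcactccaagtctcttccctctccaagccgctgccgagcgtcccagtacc
Igf2bp3 upstream: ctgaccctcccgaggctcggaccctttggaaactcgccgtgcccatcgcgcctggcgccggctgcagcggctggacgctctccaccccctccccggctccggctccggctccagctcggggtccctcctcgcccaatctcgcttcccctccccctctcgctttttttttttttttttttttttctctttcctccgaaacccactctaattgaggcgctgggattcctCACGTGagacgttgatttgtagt

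Library totals ran from 15430999 to 35845371 counts. Levels are given as CPM, counts scaled to a common library size by the trimmed mean of M values, and levels of different genes are compared only per kilobase of exon (RPKM). Control 5DPI replicate 4 and all 3 dKO 5DPI libraries formed a second library set, marked by reads on 174 to 373 olfactory receptor genes at equal depth, against 53 to 73 in the other 8 libraries. At 5DPI a genotype difference therefore lies largely between the sets, and results for the members and lists are also given from a fit with the set as a term, which compares dKO with control replicate 4. Tfeb ran from 14.2 to 29.8 CPM in dKO 5DPI nerve against 18.2 to 24.0 in control, and Tfe3 from 49.5 to 53.8 against 55.0 to 67.6. These counts cover the whole gene and the sources used here do not say which exons were deleted, so they do not check the genotype labels. The 9 Schwann cell markers (Sox10 and others) summed to between 41454 and 52837 CPM in intact nerve, where 9 fibroblast markers summed to between 5902 and 7380 CPM. Control 5DPI replicate 1 had 10712 counts of Xist, a transcript of female cells, and every other library had at most 23. Without it, the log2 genotype difference at 5DPI was -3.77 for Hmga2, -0.84 for Hmga1 (adjusted p = 0.181) and -1.04 for Igf2bp2 (adjusted p = 0.00119, edgeR).

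Hmga2 (ENSMUSG00000056758, chr10:120361275-120476469, minus strand, GRCm38) was close to silent in intact nerve, was abundant after transection in control and stayed low in dKO. Its level was 13.1, 8.84 and 11.3 CPM in dKO 5DPI replicates 2, 3 and 4, against 235, 166 and 135.5 CPM in control 5DPI replicates 1, 2 and 4. The groups were far apart. Control replicate 4, which shares a library set with the dKO libraries, was the lowest of the controls and well above dKO. Intact nerve had 3.79, 4.79 and 3.90 CPM in dKO replicates 2, 3 and 4, against 2.78, 5.50 and 4.64 CPM in control replicates 1, 2 and 3. The intact groups overlapped fully.

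In reads, Hmga2 had 195 to 434 counts per dKO 5DPI library and 3300 to 7493 per control 5DPI library, so depth does not limit the contrast. The dKO 5DPI mean was 6.19% of the control mean, 11.1 ± 2.14 CPM against 179 ± 50.7 CPM (SD, n = 3 each). The change with transection was 2.66-fold in dKO and 41.5-fold in control, as ratios of group means. On the log2 scale of the fit these were 1.41 (SE 0.26) in dKO and 5.38 (SE 0.28) in control, a difference of -3.97 (SE 0.36). The genotype difference at 5DPI was -4.01 (SE 0.26), or -3.62 (SE 0.28) with the library set as a term. These values chose the gene and carry no test. In bulk nerve, fewer cells of a type and less RNA per cell cannot be told apart. In order, the Hmga2 level was highest in control 5DPI, then dKO 5DPI, whose libraries were all above every intact one, while both intact groups could not be ordered. The one contrast not used to choose it, genotype in intact nerve, was -0.04 (SE 0.27), with an adjusted p of 0.989 by edgeR's quasi-likelihood test.

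Exons of an antisense gene, 1700006J14Rik, overlap those of Hmga2, and the sources used here do not say which strand was counted. That model had 0.52 to 0.917 CPM in dKO 5DPI nerve and 4.31 to 6.95 CPM in control 5DPI nerve, a small part of the Hmga2 level in each. Its reads and those of Hmga2 cannot be told apart where they overlap.

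**Figure D1:**
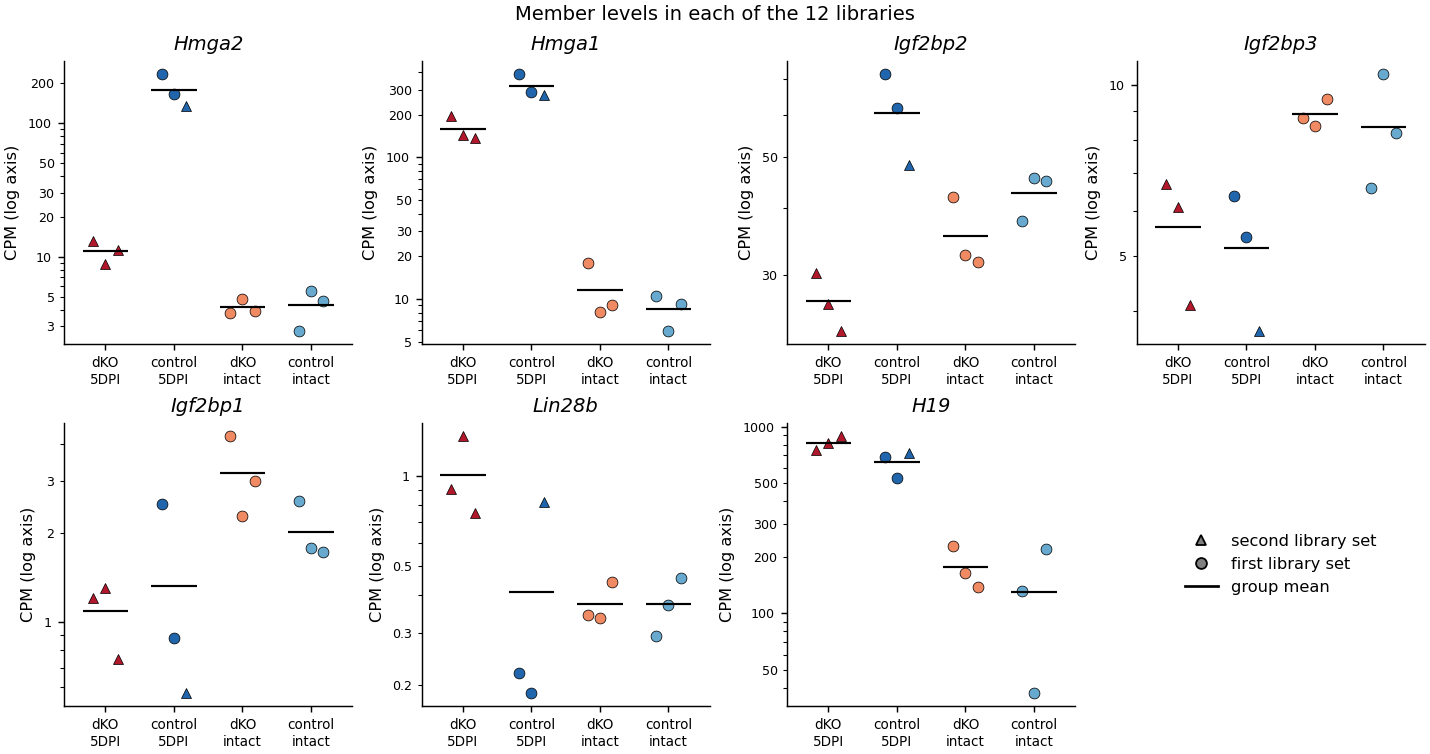
Levels of the 7 members in CPM on log axes, 1 point per library, with group means as bars and triangles for the second library set (control 5DPI replicate 4 and the 3 dKO 5DPI libraries). Hmga2 lies between 8.84 and 13.1 CPM in dKO 5DPI and between 135.5 and 235 in control 5DPI, and H19 is high in both 5DPI groups. Hmga1 and Igf2bp2 are lower in dKO 5DPI without overlap, as were 17.9% of tested models.

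Hmga1, the paralogue of Hmga2 that is abundant in dividing cells, rose with transection in dKO as well as in control nerve. It had 195, 143 and 138 CPM in dKO 5DPI replicates 2, 3 and 4, against 389, 288 and 278 CPM in control 5DPI replicates 1, 2 and 4. All dKO libraries were below all controls, an order that 17.9% of tested models showed. Intact levels were 17.8, 8.02 and 9.03 CPM in dKO and 10.6, 5.95 and 9.14 CPM in control, which overlapped, with dKO replicate 2 the highest.

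Transection raised Hmga1 13.7-fold in dKO and 37.2-fold in control as ratios of means. The log2 changes were 3.78 (SE 0.33, adjusted p = 6.09e-06) in dKO and 5.21 (SE 0.36, adjusted p = 5.44e-07) in control by edgeR's quasi-likelihood test. The genotype difference at 5DPI was -1.0 (SE 0.30) with an adjusted p of 0.0533, short of the threshold of 0.05. DESeq2 called it with an adjusted p of 0.0039, and the library set term moved it to -0.81 with an adjusted p of 0.493. The difference between the transection changes was -1.44 (SE 0.44, adjusted p = 0.125).

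Some Hmga1 reads can match other places in the genome, and the sources used here do not say how such reads were counted, so its level is uncertain to that extent. A protein-coding gene on the opposite strand, AI413582, also overlaps Hmga1 exons.

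The balance of both chromatin proteins differed at 5DPI. Per 100 Hmga1 counts, there were 6.73, 6.16 and 8.17 Hmga2 counts in dKO 5DPI replicates 2, 3 and 4, against 60.4, 57.7 and 48.8 in control 5DPI replicates 1, 2 and 4. In intact nerve the ratio was 21.2 to 59.7 in dKO and 26.3 to 92.4 in control, on at most 466 counts of either gene. The dKO 5DPI libraries were below every other library in this ratio. Since Hmga2 was chosen for its low level there, this is a description and has no test.

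Igf2bp2 (chr16:22059009-22163299, minus strand), the RNA-binding protein gene known as an HMGA2 target, was lower in dKO nerve after transection. It had 30.3, 26.5 and 23.6 CPM in dKO 5DPI replicates 2, 3 and 4, against 71.5, 61.8 and 48.2 CPM in control 5DPI replicates 1, 2 and 4. All dKO libraries were below all controls, an order that 17.9% of tested models showed, and the control library of the second set was nearest to dKO. Intact levels were 42.0, 32.8 and 31.7 CPM in dKO and 37.9, 45.7 and 45.0 CPM in control, with dKO replicate 2 inside the control range. The dKO 5DPI libraries were also below all intact ones, while all control 5DPI libraries were above all intact ones. How many of all models showed these orders was not counted.

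The genotype difference in Igf2bp2 at 5DPI was -1.17 (SE 0.16, adjusted p = 0.00027 by edgeR), a dKO mean 44.2% of the control mean. It was called in all 23 alternatives, and with the library set as a term it was -0.85 (SE 0.19, adjusted p = 0.033). Igf2bp2 was the only tested member called in this contrast, with Lin28b left out, where 12.1% of all tested models were called. In control, transection raised it by 0.50 (SE 0.16, adjusted p = 0.017), and the call was lost without control intact replicate 1 (0.33, adjusted p = 0.137) or control 5DPI replicate 1 (0.36, adjusted p = 0.0867). In dKO the change was -0.40 (SE 0.16, adjusted p = 0.0505), or 0.06 (SE 0.25, adjusted p = 0.897) with the library set as a term. The difference of these changes was -0.90 (SE 0.22, adjusted p = 0.0436). It was called in 7 of 22 alternatives, was lost in 9 of 12 fits that left out 1 library, and was -0.57 (adjusted p = 0.464) with the library set as a term. Igf2bp2 was the only tested member called in this contrast, with Lin28b left out, where 2.9% of all tested models were called.

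**Figure D2:**
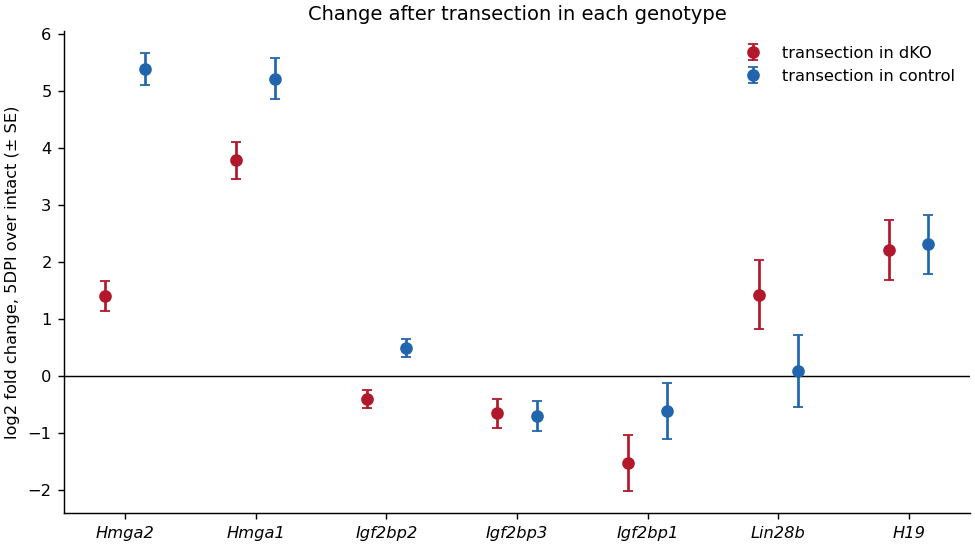
Log2 change with transection (5DPI over intact) for each member, in dKO and in control, with bars of 1 standard error from the edgeR fit over 12 libraries. Hmga2 changed by 1.41 in dKO and 5.38 in control, Hmga1 by 3.78 and 5.21, Igf2bp2 by -0.40 and 0.50, and H19 by 2.21 and 2.31.

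Neither of the other IGF2BP genes was called between genotypes at 5DPI. Igf2bp3 (chr6:49085223-49214957) had 6.71, 6.11 and 4.10 CPM in dKO 5DPI replicates 2, 3 and 4, against 6.39, 5.41 and 3.70 CPM in control 5DPI replicates 1, 2 and 4. These groups overlapped almost entirely. Intact nerve had 8.48 to 9.44 CPM in dKO and 6.58 to 10.5 CPM in control. Igf2bp3 fell by 0.70 (SE 0.26, adjusted p = 0.0362) with transection in control, and in dKO the change was -0.65 (SE 0.26, adjusted p = 0.0522), or 0.03 (adjusted p = 0.977) with the library set as a term. The control call was lost with the library set as a term (-0.51, adjusted p = 0.131) and in 4 of 12 fits that left out 1 library. The genotype difference at 5DPI was 0.13 (SE 0.26, adjusted p = 0.78), or 0.62 (SE 0.35, adjusted p = 0.531) with that term. Exons of Malsu1 overlap Igf2bp3 on the opposite strand.

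Igf2bp1 (chr11:95957163-96005940), which stabilises messenger RNAs in embryonic tissue, was low throughout. It had 1.21, 1.31 and 0.751 CPM in dKO 5DPI replicates 2, 3 and 4, against 2.51, 0.881 and 0.575 CPM in control 5DPI replicates 1, 2 and 4. Control replicate 1 stood above the rest, and the groups overlapped. Intact nerve had 2.29 to 4.25 CPM in dKO and 1.72 to 2.56 CPM in control. The change with transection in dKO was -1.52 (SE 0.49, adjusted p = 0.022), with 13 to 47 counts per dKO 5DPI library. It was 0.03 (SE 0.75, adjusted p = 0.983) with the library set as a term, and all dKO 5DPI libraries are of the second set. In control the change was -0.60 (SE 0.49, adjusted p = 0.335), and the genotype difference at 5DPI was -0.27 (SE 0.50, adjusted p = 0.766). That difference had the opposite sign with the library set term, 0.94 (SE 0.69, adjusted p = 0.686).

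Lin28b (chr10:45376620-45486395), the brake on let-7, was barely detected and its level went with the library set. It had 0.906, 1.36 and 0.751 CPM in dKO 5DPI replicates 2, 3 and 4, against 0.219, 0.189 and 0.822 CPM in control 5DPI replicates 1, 2 and 4. Control replicate 4, of the second set, lay inside the dKO range. Intact nerve had 0.335 to 0.441 CPM in dKO and 0.293 to 0.457 CPM in control. These levels rest on 6 to 49 counts per library. Lin28b reached the cutoff on low counts in all 3 dKO 5DPI libraries and in 1 library of each other group. Its genotype difference at 5DPI was 1.33 (SE 0.61), and 0.30 (SE 0.64) with the library set as a term. Without control 5DPI replicate 4 it was 2.28. As Lin28b reached the cutoff in only 1 library of each other group, these values carry no test.

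Gene models of let-7 and miR-98 went partly with the same set. The 10 models summed to 71.6, 49.2 and 25.4 CPM in dKO 5DPI replicates 2, 3 and 4, against 19.6, 7.08 and 22.0 CPM in control 5DPI replicates 1, 2 and 4. The intact range was 8.59 to 15.9 CPM in dKO and 6.47 to 8.52 CPM in control. Mirlet7a-2 had 391, 280 and 64 counts in the dKO 5DPI libraries, 75 in control 5DPI replicate 4 and at most 3 in the other 8 libraries. Libraries were from polyA RNA, so reads at these loci do not measure mature let-7. Whether they came from precursor or host transcripts was not tested.

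**Figure D3:**
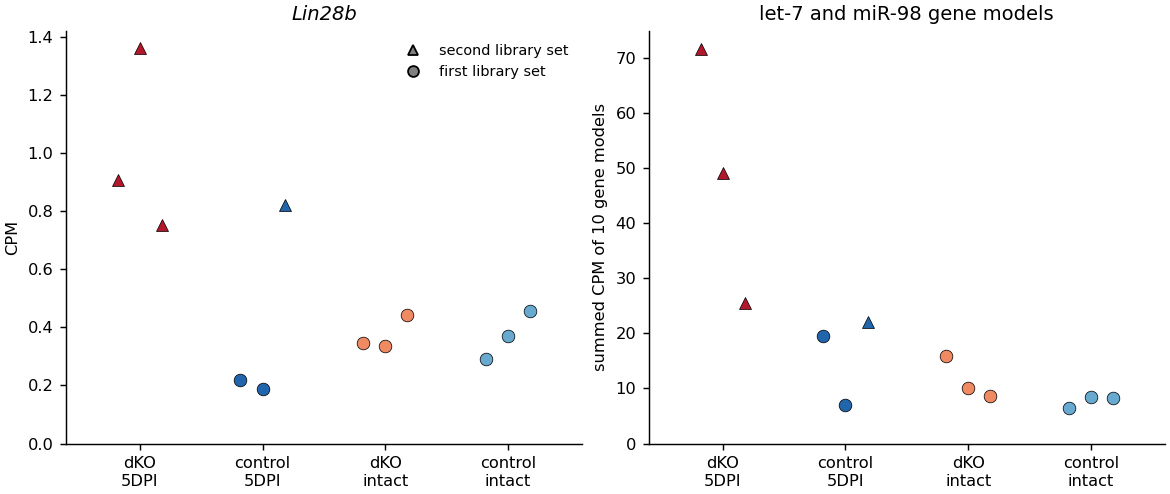
Lin28b in CPM (left) and the summed CPM of 10 let-7 and miR-98 gene models (right), 1 point per library, with triangles for the second library set. Control 5DPI replicate 4 lies with the dKO 5DPI libraries for Lin28b, at 0.822 CPM, and is the highest control 5DPI library for let-7 models, at 22.0 CPM.

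Proteins that process or degrade let-7 were taken as a list. Of 11 tested factors, none was higher and 1 was lower at 5DPI, Khsrp, a splicing and decay factor that promotes let-7 maturation (-0.41, SE 0.11, adjusted p = 0.0274 by edgeR). The call was lost with the library set as a term (-0.23, adjusted p = 0.578). The median over the list was -0.18, against -0.02 over all tested models, of which 12.1% were called between genotypes at 5DPI. Xpo5, which exports precursor microRNAs from the nucleus, fell with transection by 0.94 (SE 0.15, adjusted p = 0.000117; -0.69, adjusted p = 0.0726, with the set term) in dKO and by 1.19 (SE 0.15, adjusted p = 1.03e-05) in control. Dis3l2, which degrades let-7 precursors, rose by 0.67 (SE 0.12, adjusted p = 0.000319) in dKO and 0.84 (SE 0.12, adjusted p = 3.71e-05) in control.

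At 5DPI 12.1% of all tested models were called between genotypes. Among 20 other known let-7 targets, 1 was lower in dKO and none was higher. It was Ccnd1, the G1 cyclin, with 514 ± 25.6 CPM in dKO 5DPI and 827 ± 86.4 CPM in control 5DPI (SD, n = 3 each), a log2 difference of -0.69 (SE 0.12, adjusted p = 0.00153 by edgeR). It was -0.51 (adjusted p = 0.117) with the library set as a term. The median of the 20 was -0.20. With transection, 5 rose and 5 fell in dKO, where 44.7% of all tested models were called, and 9 rose and 5 fell in control, where 46.8% were.

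H19 (chr7:142575529-142578143, minus strand), the imprinted noncoding RNA, rose after transection in both genotypes. It had 748, 818 and 889.9 CPM in dKO 5DPI replicates 2, 3 and 4, against 683, 533 and 722 CPM in control 5DPI replicates 1, 2 and 4. Every dKO library was above every control library, an order that 12.6% of tested models showed. Intact nerve had 229, 164 and 139 CPM in dKO replicates 2, 3 and 4, against 132, 37.5 and 221 CPM in control replicates 1, 2 and 3. Control intact replicate 2 was far below the rest.

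The log2 change of H19 with transection was 2.21 (SE 0.52, adjusted p = 0.00738) in dKO and 2.31 (SE 0.52, adjusted p = 0.00521) in control by edgeR's quasi-likelihood test. With the library set as a term these were 1.96 (adjusted p = 0.222) in dKO and 2.22 (adjusted p = 0.0142) in control. The difference between them was -0.10 (SE 0.70, adjusted p = 0.967), and the genotype difference at 5DPI was 0.34 (SE 0.50, adjusted p = 0.701), or 0.18 (SE 0.74, adjusted p = 0.966) with that term. The 9 fibroblast markers summed to between 11040 and 14046 CPM in dKO 5DPI and between 6186 and 10530 CPM in control 5DPI, also without overlap. In control intact replicate 2 the 8 endothelial markers summed to 486 CPM and the 6 perineurial markers to 1447 CPM, the lowest of the 6 intact libraries. Its fibroblast sum, 6652 CPM, was inside the range of the other intact libraries. With transection in control, the perineurial sum went down, from between 1447 and 2761 CPM to between 1005 and 1150 CPM. The endothelial sums overlapped, at 486 to 837 CPM in control intact and 508 to 579 CPM in control 5DPI. The part of these cells in the H19 level was not tested.

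Mir675, annotated inside an H19 exon, had 12.2 to 19.6 CPM in dKO 5DPI and 11.9 to 19.4 CPM in control 5DPI. That is 1.64 to 2.40 counts per 100 H19 counts in dKO 5DPI and 2.08 to 2.84 in control 5DPI, and reads of the host RNA cannot be told apart from those of the microRNA. Igf2, the paternally expressed growth factor of the same cluster, was chosen for mention after its values were seen. It had 76.8 to 94.1 CPM in dKO 5DPI and 51.3 to 78.9 CPM in control 5DPI, and the groups overlapped. In dKO its change with transection was 0.42 (SE 0.26, adjusted p = 0.212). The change in control was 0.78 (SE 0.26, adjusted p = 0.0299), where the groups overlapped and the call was lost with the library set term (0.65, adjusted p = 0.098). Per 100 H19 counts there were 8.63 to 11.5 Igf2 counts in dKO 5DPI and 9.62 to 10.9 in control 5DPI, against 28.1 to 41.5 in dKO intact and 25.5 to 61.3 in control intact nerve.

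The wider imprinted network of fetal growth was taken as a list. Of 18 tested genes, none was called in either direction at 5DPI, against 12.1% of all tested models, and the median was 0.24. Its members with the smallest p there were Gnas (-0.29, SE 0.10, adjusted p = 0.0702) and Igf2r, the clearance receptor for IGF2 (-0.35, SE 0.13, adjusted p = 0.0848), by edgeR. With transection, 9 rose and 3 fell in dKO, where 44.7% of all tested models were called, and 9 rose and 4 fell in control, where 46.8% were. After adding the library set term these were 4 and 1 in dKO and 7 and 4 in control, against 19.2% and 44.9% of all models.

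The counts of members called are read against the whole table. Lin28b is among the 6 and was called in none of the contrasts counted here. It carries no test where dKO 5DPI libraries enter, and is left out there. With transection in control, 4 of the 6 were called (Hmga1, Igf2bp2 and H19 higher, Igf2bp3 lower), against 46.8% of all tested models. In dKO, with Lin28b left out, 3 of the other tested members were called (Hmga1 and H19 higher, Igf2bp1 lower), against 44.7%. In intact nerve none of the 7 members differed between genotypes, with adjusted p from 0.88 to 1, and 0.00447% of all models were called there. An unadjusted p under 0.05 was given to 1299 models in that contrast and to no member. Once the fit held the library set term, Hmga1 alone was called with transection in dKO, against 19.2% of all models. In control, 3 of the 6 were then called (Hmga1, Igf2bp2 and H19), against 44.9%. In that fit Igf2bp2 was the 1 member called between genotypes at 5DPI, against 2.3%, and none was called for the difference of changes, against 0.768%. Per kilobase of exon in control 5DPI nerve, H19 was highest at 263 ± 40.6 RPKM, then Hmga1 at 149.7 ± 28.8, Hmga2 at 26.4 ± 7.49, Igf2bp2 at 8.17 ± 1.58, Igf2bp3 at 0.633 ± 0.167, Igf2bp1 at 0.136 ± 0.107 and Lin28b at 0.0452 ± 0.0394 RPKM (SD, n = 3). In dKO 5DPI nerve the order was changed at Hmga2, with 1.64 ± 0.317 RPKM, below Igf2bp2 with 3.62 ± 0.453.

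Several genes of other HMG proteins were lower in dKO at 5DPI, 7 of 13 tested and none higher, with a median of -0.41, where 12.1% of all tested models were called in either direction. Only Hmgb3 was called once the set term was added, against 2.3% of all models, and the list median was then -0.25. Hmgb2, which marks dividing cells, had 28.8 ± 7.60 CPM in dKO 5DPI and 62.2 ± 17.5 CPM in control 5DPI (-1.12, SE 0.24, adjusted p = 0.00925 by edgeR, and -0.61, adjusted p = 0.435, with the set term). Hmgn2, a nucleosome-binding protein gene, had 19.5 ± 3.63 CPM in dKO 5DPI and 34.8 ± 3.85 CPM in control 5DPI (-0.84, SE 0.16, adjusted p = 0.00374, and -0.76, adjusted p = 0.122, with the set term). Hmgb3 was also lower (-0.74, adjusted p = 0.00595, and -0.88, adjusted p = 0.0413, with the set term).

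Genes of cell division, repair Schwann cells and some other cell types also differed with genotype at 5DPI, and their part in the Hmga2, Hmga1 and Igf2bp2 levels was not tested. Counts of called markers stand against 12.1% of all tested models in this contrast, or 2.3% with the library set term. All 20 cell division markers were lower in dKO at 5DPI, with a median of -1.30. They summed to 646 to 745 CPM in dKO against 1453 to 1820 CPM in control. Mki67, a marker of cycling cells, was -1.46 (SE 0.11, adjusted p = 1.68e-06) and Foxm1, a mitotic transcription factor gene, was -1.62 (SE 0.14, adjusted p = 6.4e-06) by edgeR. After adding the library set term, 9 of the 20 were called lower, Mki67 (-1.24) and Foxm1 (-1.38) among them, with a median of -1.0. Of 9 repair Schwann cell markers 5 were lower, among them Runx2 (-1.38, SE 0.17, adjusted p = 0.000169) and Sox2 (-1.26, SE 0.15, adjusted p = 0.000102), and with that term these were the 2 called, at -1.0 and -1.03. Their summed level was 1159 to 1349 CPM in dKO and 1585 to 2093 CPM in control. The 9 Schwann cell markers summed to between 3549 and 4263 CPM in dKO 5DPI and between 3292 and 4765 CPM in control 5DPI, with 1 higher and 5 lower in dKO and a median of -0.73. The 8 endothelial markers summed to between 681 and 922 CPM in dKO 5DPI and between 508 and 579 CPM in control 5DPI, with 1 called higher (Flt1). The 9 lymphocyte markers summed to between 17.8 and 33.9 CPM in dKO 5DPI and between 70.8 and 285 CPM in control 5DPI, with Cd8a called higher and Gzmb lower. Gzmb made up most of these sums, at 9.20 to 29.4 CPM in dKO 5DPI and 64.8 to 265.9 CPM in control 5DPI. The median log2 difference of the 9 was -0.32. These 3 genes were named after their values were seen, and Cd8a averaged only 0.588 CPM in dKO 5DPI and 0.0274 CPM in control 5DPI. With the library set term none of the 3 was called, nor was any other endothelial or lymphocyte marker. Of the Schwann cell markers, 1 was then called higher and 4 lower, with a median of -0.29.

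Hmga2 and Hmga1 were also set against Mki67, as a description without a test, since Hmga2 was chosen for its low level in dKO 5DPI. Per 100 Mki67 counts there were 20.4, 12.6 and 14.97 Hmga2 counts in dKO 5DPI replicates 2, 3 and 4, against 115, 80.5 and 82.0 in control 5DPI replicates 1, 2 and 4. For Hmga1 the same ratio was 303, 205 and 183 in dKO 5DPI, against 191, 139.5 and 168 in control 5DPI. Every dKO 5DPI library was below every control 5DPI library in the Hmga2 ratio, for which the gene was in effect chosen. The Hmga1 ratio was higher in dKO 5DPI replicates 2 and 3 than in any control 5DPI library. In intact nerve, on 39 to 55 Mki67 counts, the Hmga2 ratio was 254 to 341 in dKO and 138 to 324 in control. The Hmga1 ratio was there 572 to 1195 in dKO and 351 to 578 in control.

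**Figure D4:**
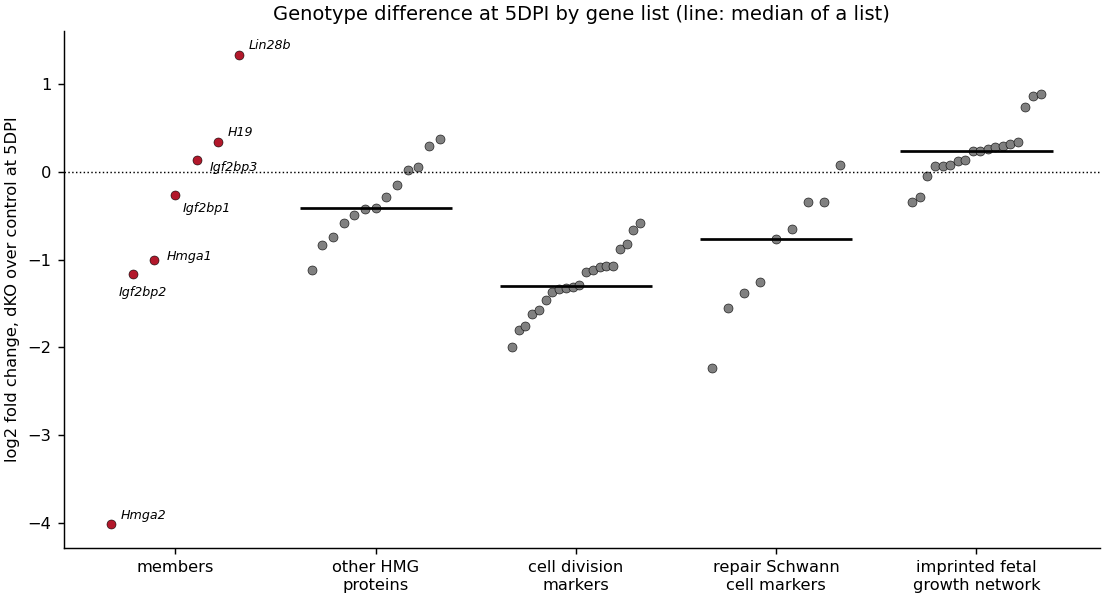
Log2 difference at 5DPI (dKO over control), 1 point per gene, for the 7 members and for 4 lists, with a line at each list's median. Hmga2 is at -4.01, below every gene plotted, while the list medians are -0.41 for other HMG proteins, -1.30 for cell division, -0.77 for repair Schwann cell markers and 0.24 for the imprinted network.

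Genes known downstream of HMGA2 or IGF2BP proteins were examined as a further list. Between genotypes at 5DPI, 12.1% of all tested models were called, or 2.3% with the library set term. Of 15 genes tested on this list, 4 were lower in dKO and none was higher, with a median of -0.01. They were Ccnb2 (-1.48, SE 0.22, adjusted p = 0.000505), Ccna2 (-1.31, SE 0.15, adjusted p = 6.42e-05), E2f1 (-1.32, SE 0.20, adjusted p = 0.000831) and Cd44 (-0.74, SE 0.17, adjusted p = 0.0123) by edgeR. Ccna2 and Ccnb2 are cyclins, E2f1 drives S-phase entry and Cd44 is a hyaluronan receptor, and Ccna2 is also on the cell division list. In the fit with the set term Ccna2 (-0.99, adjusted p = 0.00776) and E2f1 (-1.19, adjusted p = 0.0444) were called, and Ccnb2 (-0.93, adjusted p = 0.0614) and Cd44 (-0.51, adjusted p = 0.393) were not. E2f1 and Cd44 were named after their values were seen. Cdkn2a, the senescence locus that HMGA2 represses in mouse neural stem cells, had 13.8, 13.7 and 27.5 CPM in dKO 5DPI replicates 2, 3 and 4, against 7.17, 16.0 and 18.7 CPM in control 5DPI replicates 1, 2 and 4. These groups overlapped, and the difference was 0.39 (SE 0.34, adjusted p = 0.497), or -0.04 (adjusted p = 0.989) with that term.

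The genes whose profile over the 12 libraries was most like that of Hmga2 were not members. Likeness was the root mean square difference between log2 CPM profiles, each centred on its own mean, over 15785 named models with a median of 2.25. Nearest were Lgals3 (galectin-3, 0.47), Rlbp1 (a retinaldehyde-binding protein gene, 0.59), Car2 (carbonic anhydrase 2, 0.69), and Dusp10 (a MAP kinase phosphatase gene), Gal3st2 (a galactose sulfotransferase gene) and Btbd16 at 0.73 each. Of the members, Hmga1 ranked 240 (1.31), H19 1277 (1.78), Igf2bp2 2655 (1.96), Lin28b 11477 (2.44), Igf2bp3 12521 (2.51) and Igf2bp1 14044 (2.72). Lgals3 averaged 150.6 ± 10.7 CPM in dKO 5DPI and 2213 ± 170 CPM in control 5DPI, with 34.7 ± 2.23 in dKO intact and 31.3 ± 0.315 in control intact nerve (SD, n = 3 each). Dusp10 averaged 12.8 ± 1.35 CPM in dKO 5DPI and 66.5 ± 2.87 CPM in control 5DPI. As these genes were picked for likeness to Hmga2 their levels carry no test.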

How the data were processed

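The deposited raw table holds whole-number counts of reads per gene model. A second deposited table gives a signal that the authors made by dividing each library's counts by a single factor, since the ratio of both tables varied within a library by at most 0.124%. Per the submitters' processing notes, DESeq2, R 4.2.1 and mm10 were used, and the sources used here name no aligner, counter, strand or annotation. Libraries were from polyA RNA with an Ion Torrent kit, per the labels.

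The tests used edgeR 4.0.16 under R 4.3.3 (filterByExpr with a minimum count of 10, TMM scaling, robust quasi-likelihood fits, 1 mean per group over 12 libraries), with Benjamini-Hochberg adjustment over 22384 models and a threshold of 0.05. For 1 gene, exact permutation of 3 against 3 libraries gives no p below 0.1. Members and gene lists were chosen with earlier results of these data known, and the library set was found in the data. Named genes were the members, per list the 2 genes with the smallest p with transection in control and between genotypes at 5DPI (not all printed), and the 6 genes most like Hmga2. Positions, exon lengths and untranslated regions are from GENCODE M21, and promoters and microRNAs from RefSeq (GRCm38.p6). Alternatives were DESeq2 1.42.0, limma-voom and limma-trend on the normalized values (limma 3.58.1), other scalings and filters, fits of the compared groups, a replicate block, a library set term and leaving out each library. Some items are not reported here.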

Additional observations from a re-analysis of the deposited data

Results flagged for a closer look

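The difference between the transection changes of Igf2bp2, dKO minus control, stood out because the test of that difference passed its threshold. Its log2 value was -0.90 (SE 0.22, adjusted p = 0.0436 by edgeR's quasi-likelihood test), from a change of -0.40 in dKO and 0.50 in control. All 3 dKO 5DPI libraries were below every intact library, and all 3 control 5DPI libraries were above every intact library. The share of all models with these orders was not counted. The adjusted p ran from 0.0122 to 0.464 over 22 alternatives, 7 of which called it. With the library set as a term it was -0.57, from a change of 0.06 in dKO and 0.64 in control.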

How the results depend on the processing

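All 23 alternatives kept the sign of the Hmga2 changes with transection and between genotypes at 5DPI (-4.19 to -3.62). Counts of called members other than Hmga2 moved as follows. They include Lin28b, though its values carry no test where dKO 5DPI libraries enter. With transection in dKO (3), limma-voom gave 5, fits of the compared groups 6 and the library set term 1; leaving out 1 library gave 2 to 6, and 3 to 4 in control (4). Between genotypes at 5DPI (1), DESeq2, limma-voom, fits of the compared groups and both limma-trend fits gave 2, and leaving out 1 library gave 1 to 3. For the difference of changes (1), DESeq2 gave 2, the voom, limma-trend, DESeq2 and upper-quartile scaling and library set fits gave 0, and leaving out 1 library gave 0 to 1. Over all models, the intact genotype contrast (1) gave 7 with DESeq2, 5 with no filter, 3 with the library set term, 2 with DESeq2 or upper-quartile scaling, 0 with limma-voom, limma-trend, the stricter filter, the compared groups and the replicate block, and 0 to 3 leaving out 1 library. The library set term gave 4299 with transection in dKO (9997), 515 between genotypes at 5DPI (2707) and 172 for the difference (650), where DESeq2 gave 1091. Leaving out 1 library gave 9193 to 10523 with transection in control (10474), 8114 to 10995 in dKO, 1577 to 4225 at 5DPI and 352 to 1276 for the difference. With the library set term, values with transection in dKO changed sign for Igf2bp1 (0.03 from -1.52), Igf2bp2 (0.06 from -0.40), Igf2bp3 (0.03 from -0.65) and Lin28b (-0.56 from 1.43), in control for Lin28b (-0.86 from 0.10), and for Igf2bp1 between genotypes at 5DPI (0.94 from -0.27) and in the difference (0.29 from -0.92). Lin28b was among the members called in some counts above: limma-voom, the compared groups and leaving out control 5DPI replicates 1 or 4 with transection in dKO, and leaving out replicate 4 at 5DPI. The cause was not tested.

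Replicate numbers shared between groups were not taken as pairs in the main fit. Control replicate 1 had 3 Xist and 3068 Y-linked counts in intact nerve, and 10712 and 244 at 5DPI. By these counts, that number did not mark the same animal. For the other numbers, 3 libraries per group cannot show whether animals were shared. Same-numbered dKO libraries correlated at 0.12, 0.10 and -0.01 in their deviations from group means, against -0.14 to 0.04 for the other dKO pairs. Same-numbered control libraries correlated at -0.09 (replicate 1) and 0.00 (replicate 2). The replicate block gave 1386 calls between genotypes at 5DPI and 410 for the difference. Upper-quartile scaling moved all models by 0.141 with transection in dKO, 0.108 between genotypes at 5DPI and 0.127 for the difference (log2). Depth limits Lin28b and Igf2bp1, with under 112 counts per library.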

Other observations

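Some microRNA gene models of the let-7 family split by library set, and others did not. Mirlet7a-1 had 395, 294 and 68 counts in dKO 5DPI replicates 2, 3 and 4, with 87 in control 5DPI replicate 4 and at most 13 in any library of the first set. Mirlet7b had 182, 155 and 33 counts in the dKO 5DPI libraries, with 32 in control 5DPI replicate 4 and at most 12 elsewhere. Mirlet7d did not split in this way, with 5, 22 and 13 counts in dKO 5DPI libraries and 11, 28 and 11 in control 5DPI replicates 1, 2 and 4. Mirlet7c-2 was more even, with 151 to 830 counts in dKO 5DPI and 127 to 403 in control 5DPI. Over 599 microRNA gene models the summed level was 440 to 495 CPM in dKO 5DPI and 343 to 503 CPM in control 5DPI, and these ranges overlapped.

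The antisense model 1700006J14Rik, which overlaps Hmga2 exons, had 9 to 33 counts in dKO 5DPI libraries and 105 to 221 in control 5DPI libraries. It had 10 to 32 counts in dKO intact and 2 to 19 in control intact libraries.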
